A study of Mus musculus with 17 samples.

Results

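The comparison is of Th2 cells with the genotype label OTII_Notch1/2-KO, taken either from the lymph node of allergic mice or from a culture dish. Its members are the genes whose deposited RPKM, a read count adjusted for transcript length and library depth, was at least 1 in at least 2 of the 6 libraries, which are 11168 of the 24537 genes listed (45.5%). The lymph node knockout group has 4 libraries of Th2 cells sorted by flow cytometry from the mediastinal node, which drains the lung, of OTII mice with an airway inflammation driven by an allergen; the column headers add OVA-HDM. The culture knockout group has 2 libraries of naive T cells from spleens of OTII mice with the same genotype label, kept for 7 days on plates coated with antibodies to CD3 and CD28, with IL-4 present and IFN-γ and IL-12/23 neutralised by antibodies. Lymph node wild type (3 libraries) and culture wild type (2 libraries) cells of OTII mice, with the genotype label OTII, were used for a test of the difference between genotypes. All 11 carry the OTII transgene, a T cell receptor for ovalbumin. The labels do not give the Cre line or the cell type of the deletion, nor age, sex or strain, nor whether replicates are separate animals, although the series' design text calls them biological. The column headers number the node knockout libraries as 2 pairs and do not say what a pair shares. P-values therefore measure the spread between these libraries, which may be partly technical. Libraries were made by Smart-seq2, which works from small amounts of RNA.

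Th2 cells are the CD4 T cells that make IL-4, IL-5 and IL-13 and drive allergic airway disease; the transcription factor Gata3 sets their identity. Notch1 and Notch2 are receptors that, on meeting a ligand on a neighbouring cell, release a fragment that joins the DNA-binding protein Rbpj and switches on genes such as Hes1, Dtx1 and Nrarp. T cells leave a lymph node when the receptor S1pr1, whose gene is driven by Klf2, senses sphingosine phosphate, while Cd69 and Ccr7 hold them back. The series' title ties Notch to that exit. The node cells met allergen in an animal, and the cultured cells were stimulated in a dish with added IL-4. Organ, stimulus, medium and the sort all differ between the groups, and their parts in a difference cannot be told apart. Knockout below stands for the genotype label, values are RPKM scaled between libraries, and coordinates are those of the tables on mm10.

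Sequencing depth, as read back from the size of 1 read in the tables, was 22.4, 27.5, 24.1 and 19.9 M reads in the lymph node knockout libraries and 20.5 and 20.1 M in the culture knockout libraries. Between 9432 and 9874 genes were listed at 0. Log2 values correlated across genes at r = 0.973 to 0.991 within the lymph node group, at 0.987 between both culture libraries and at 0.909 to 0.925 between the groups. Lymph node replicate 2 stood apart from the other 3 (r = 0.973 to 0.983, against 0.985 to 0.991 among those), and 78.0% of its reads fell in listed genes, against 81.0% to 81.9% in the others. Calls between node and culture that were lost or gained without it are given beside the genes described. T cell markers summed to 2671 to 3381 scaled RPKM in lymph node libraries and 1673 to 2095 in culture libraries. Of the 6 Th2 markers, Gata3 was at 33.5 to 42.7 in the node and 80.6 to 82.3 in culture. Il1rl1, the IL-33 receptor of Th2 cells, was under 1 in all libraries, at 0.146 to 0.933 in the node and 0.0456 to 0.101 in culture. Il5 and Il13 were higher in the node, and Il4 and Ccr4 did not pass the test, as given below.

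Most markers of other cells were low, but not all were, and not all were equal. The 10 B cell markers in the tables summed to 16.7 to 24.2 in lymph node libraries and 8.48 to 13.4 in culture libraries. Of these Cd79a was at 3.06 to 5.95 in the node and 0.586 to 1.07 in culture. The 13 dendritic cell markers summed to 76.05 to 108 in the node and 21.1 to 28.8 in culture, most of it from the antigen presentation genes Cd74, H2-Ab1, H2-Aa and H2-Eb1. Cd74 alone was at 35.7 to 56.7 in the node, near the level of Gata3 there, and at 6.02 to 6.10 in culture. Siglech was at 0 in all 6 libraries and Clec9a reached 0.0563. Of the B cell markers tested, 5 of 6 were higher in the node, and of the dendritic cell markers 4 of 5; 4 and 2 of those tested passed the filter through 1 group only. Neutrophil markers summed to under 1, and macrophage markers to 3.33 to 5.59 in the node and 3.49 to 3.56 in culture. The eosinophil marker Siglecf was at 1.96 to 5.51 in the node and 0.195 to 0.309 in culture. ILC2 markers summed to 14.9 to 34.0 in the node and 240 to 267 in culture, mostly from Il2ra. Stromal and endothelial markers summed to 35.4 to 39.8 in the node and 38.4 to 43.0 in culture, mostly from Pecam1. The basophil and mast cell markers summed to 0.166 to 0.733 in the node and 6.03 to 7.80 in culture, there almost all from Cpa3, with Mcpt8 at 0 in the node and at most 0.116 in culture. The part of B cells and dendritic cells in the results below was not tested; in bulk RNA, fewer cells of a type and less RNA per cell cannot be told apart.

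Lymph node cells had more of many early activation and follicular helper transcripts than cultured cells, among them Fos, Egr2, Nr4a1, Il21, Tox2 and Cxcr5, and more of the RANK ligand gene Tnfsf11. They had less of the granzyme genes Gzma and Gzmb, the receptor chain genes Il2ra and Il4ra, most cholesterol synthesis genes, and the migration genes Ccr7, Klf2 and S1pr1. Values were compared as log2(scaled RPKM + 1) with limma, two-sided; p-values were adjusted by Benjamini and Hochberg's method over all 11168 genes, with a threshold of 0.05. In all 3237 genes passed (29.0% of those tested), 1560 higher in the node (14.0%) and 1677 lower (15.0%). Rose and fell below mean higher and lower in the node and past that threshold. Each count of list members that rose or fell stands against these shares of 14.0% and 15.0%. Of the called genes, 479 were over 2-fold higher and 541 over 2-fold lower (absolute log2 fold change over 1), and 45 and 34 over 8-fold (over 3). The node and culture libraries did not overlap in 5573 genes (49.9%). Over all genes the median log2 fold change was -0.0082. Of the members, 319 passed the filter through the lymph node libraries only and 271 through the culture libraries only, and 197 and 243 of these were called; such genes had to differ. Just inside the filter, 432 genes were at 1 or more in exactly 2 libraries (median of their highest RPKM 1.82), and just outside, 369 were so in 1 library only (median 1.15). The count of calls fell to 1778 without culture replicate 1 and to 1677 without culture replicate 2; 1735 and 1625 of these were among the 3237.

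**Figure D1:**
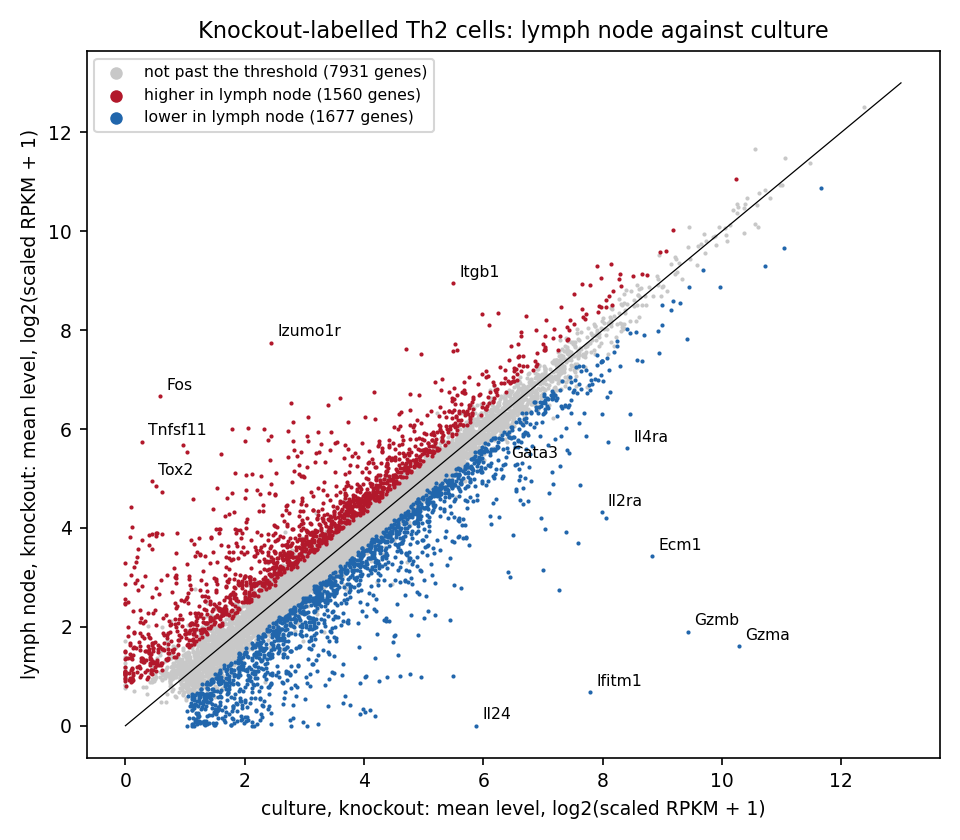
Mean level of each of the 11168 genes in lymph node knockout libraries (vertical axis) against culture knockout libraries (horizontal axis), both as log2(scaled RPKM + 1). Red points are the 1560 genes higher in the node, blue points the 1677 lower, grey points did not pass, and the line marks equal levels; Fos, Tnfsf11 and Izumo1r lie far above it and Gzma, Gzmb and Ifitm1 far below.

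The targeted genes come first. Notch1 (NM_008714, chromosome 2, 26457902 to 26503822), the receptor gene whose loss the label names, had 9.63, 7.60, 11.97 and 12.3 scaled RPKM in lymph node knockout libraries and 3.99 and 0.998 in culture knockout libraries. All were below the 46.6, 46.7 and 43.96 of lymph node wild type and the 25.2 and 27.7 of culture wild type libraries. Within the knockout label it rose in the node (log2 fold change 1.83, SE 0.34, adjusted p = 0.00498; 1.17 without culture replicate 2). Notch2 (NM_010928, chromosome 3, 98013538 to 98150367) had 14.2, 13.4, 16.2 and 17.8 in lymph node knockout and 6.76 and 6.27 in culture knockout libraries. Its values were 7.66, 7.78 and 7.16 in lymph node wild type and 7.32 and 6.94 in culture wild type libraries. It rose too (log2 fold change 1.12, SE 0.13, adjusted p = 0.000618), and in the node its level was higher with the knockout label than with the wild type label. Values summed over a transcript cannot reveal a deleted exon.

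Of the Notch partners, Rbpj (NM_009035, chromosome 5, 53590346 to 53657445) had 91.3, 128, 93.8 and 93.8 in the node and 48.4 and 44.3 in culture, without overlap (log2 fold change 1.10, SE 0.15, adjusted p = 0.00112). Of 26 tested genes of the pathway, 9 rose and 3 fell (median log2 fold change 0.19). These are 34.6% and 11.5%, against 14.0% and 15.0% over all genes. Of the 26, 2 passed the filter through 1 group only, Jag2 and Dtx4, and had to differ. Among those that rose were Psen2, a catalytic subunit of the γ-secretase that frees the Notch fragment (54.8 in the node and 26.3 in culture), and the Deltex family genes Dtx3 (105 in the node and 49.9 in culture) and Dtx4 (1.53 in the node and 0.227 in culture). Those that fell were the ligand gene Jag2 (0.349, 0.436, 0.590 and 0.238 in the node, 3.66 and 2.40 in culture), the glycosyltransferase gene Lfng (56.2 in the node and 90.7 in culture) and Numbl (1.12 in the node and 2.02 in culture). Only 5 rose without culture replicate 1 and 4 without culture replicate 2; Dtx4, Lfng and Numbl lost their calls without either one, and Dtx3 without replicate 2, with adjusted p up to 0.0767, 0.118, 0.187 and 0.0803 over the alternatives. Numbl lost its call without lymph node replicate 2 as well. Classical targets were barely present in the knockout libraries: Hes1 was at 0.0628, 0.104, 0 and 0.0350 in the node and 0.135 and 0.0340 in culture, and Nrarp at 0.229, 0.218, 0.292 and 0.176 in the node and 0.965 and 1.62 in culture. Both were low in wild type libraries too. There Hes1 was at 0.0365, 0.0313 and 0 in the node and 0.167 and 0.227 in culture. Wild type Nrarp was at 0.709, 0.664 and 0.579 in the node and 1.15 and 1.16 in culture. Dtx1, an E3 ligase gene, had 0.696, 0.717, 0.856 and 1.14 in lymph node knockout and 0.0919 and 0.0126 in culture knockout libraries, against 50.4, 37.3 and 37.6 in lymph node wild type and 0.196 and 0.240 in culture wild type libraries. None of these 3 passed the filter. The other targets listed here that were tested, Gzmb, Il2ra, Myc and Ccnd3, are also targets of other signals, and all 4 fell.

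Immediate early genes, which switch on within minutes to hours of antigen receptor signals, were among the largest rises. Fos (NM_010234, chromosome 12, 85473901 to 85477270), a subunit of the AP-1 factor, had 119.9, 85.4, 124 and 74.4 in the node and 0.443 and 0.556 in culture (log2 fold change 6.06, SE 0.21, adjusted p = 2.02e-06). Egr2 (NM_001347458, chromosome 10, 67537930 to 67542188), a zinc finger factor that restrains T cell activation, had 27.6, 23.8, 25.5 and 33.99 in the node and 0.394 and 0.447 in culture (log2 fold change 4.33, SE 0.15, adjusted p = 2.02e-06). Nr4a1 (NM_010444, chromosome 15, 101266846 to 101274794), an orphan nuclear receptor used as a gauge of antigen receptor signals, had 45.4, 31.7, 44.1 and 54.1 in the node and 1.85 and 2.20 in culture (log2 fold change 3.87, SE 0.19, adjusted p = 9.61e-06). Every node library lay far above both culture libraries in all 3 genes. Of 29 early activation genes tested 17 rose and 6 fell, with 6 not past the threshold (median log2 fold change 1.11). Of these 29, 7 passed the filter through 1 group only, Fos and Egr2 among them, and had to differ. Egr3, Egr1, Fosb, Nr4a3, Jun and the phosphatase gene Dusp1 also rose, by 4.10, 3.25, 3.43, 3.11, 2.73 and 3.23 on the log2 scale. Not all members moved that way: Atf3 and Fosl2, further AP-1 family genes, and Myc fell (-1.76, -1.59 and -1.41). Cd69, an early activation marker that also removes S1pr1 from the surface, had 18.9, 29.4, 25.1 and 25.5 in the node and 4.44 and 4.92 in culture (log2 fold change 2.17, SE 0.17, adjusted p = 6.17e-05).

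Antigen receptor signalling genes rose in 23 of 41 cases and fell in 4 (median 0.52; 13 rose and 3 fell without culture replicate 2). Nfatc1, a calcium-driven transcription factor whose gene is itself induced by the receptor, had 94.4, 81.5, 112 and 139 in the node and 16.4 and 17.6 in culture (log2 fold change 2.56, SE 0.19, adjusted p = 5.74e-05). The coreceptor gene Cd4 was at 288, 279.9, 339 and 393 in the node and 103 and 47.7 in culture, and the kinase genes Zap70 and Lck rose by 1.33 and 1.13. Ubash3b, a phosphatase gene that limits receptor signals, rose by 2.02. Among the 4 that fell was Rasgrp1, which activates Ras, with 45.1, 51.8, 51.04 and 50.7 in the node and 117 and 106 in culture (log2 fold change -1.15, SE 0.10, adjusted p = 0.000132).

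NF-kB genes rose in 16 of 22 cases and none fell (median 0.63), but 14 rose without culture replicate 1 and only 7 without culture replicate 2. Those with the largest rises are feedback inhibitors and atypical members of the family. Nfkbia (NM_010907, chromosome 12, 55489409 to 55492647), the inhibitor IκBα that NF-kB induces, had 201, 163, 182 and 179 in the node and 31.3 and 28.4 in culture (log2 fold change 2.56, SE 0.11, adjusted p = 6.51e-06). Relb, of the alternative pathway, had 43.9, 24.9, 45.4 and 42.8 in the node and 9.82 and 8.58 in culture (log2 fold change 1.95, SE 0.23, adjusted p = 0.000565). Nfkbiz rose by 1.77, the deubiquitinase gene Tnfaip3 by 1.32 and Nfkb2 by 0.84, while the canonical subunit genes Rela and Rel did not pass (0.11 and 0.26).

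Promoters of the NF-kB genes that rose are shown because NF-kB is known to bind those of its own inhibitors. RefSeq windows (GRCm38.p6, 250 bases before to 50 after a start) matched 7814 of the 11168 genes within 50 bases of the start in the tables. The letters GGGANTTNC, read on both strands, stood in 6 of the 13 matched NF-kB genes that rose (Nfkbia, Nfkb2, Tnip1, Cyld, Traf3 and Bcl3), in 5.08% of all 7814 windows and in 4.54% of the 1079 windows of all genes that rose. Of these 6, Nfkbia kept its call without culture replicate 2 and the other 5 lost theirs (for Nfkb2, adjusted p up to 0.0661 over the alternatives). The 250 bases before the start follow for Nfkbia (chr12:55492648-55492897 on the minus strand), Nfkb2 (chr19:46305680-46305929 on the plus strand) and Tnip1 (chr11:54962941-54963190 on the minus strand), with matches in capitals; in Tnip1 a pair of matches on opposite strands overlaps.
Nfkbia: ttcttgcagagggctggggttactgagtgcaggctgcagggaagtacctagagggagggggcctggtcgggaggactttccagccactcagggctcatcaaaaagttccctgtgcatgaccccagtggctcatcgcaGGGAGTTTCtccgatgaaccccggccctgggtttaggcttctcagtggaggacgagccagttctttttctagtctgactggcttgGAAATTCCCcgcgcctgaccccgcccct
Nfkb2: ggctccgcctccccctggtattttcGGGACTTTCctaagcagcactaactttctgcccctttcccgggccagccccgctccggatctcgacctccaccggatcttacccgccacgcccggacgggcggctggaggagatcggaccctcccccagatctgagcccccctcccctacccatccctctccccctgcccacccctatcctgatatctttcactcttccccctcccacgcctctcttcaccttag
Tnip1: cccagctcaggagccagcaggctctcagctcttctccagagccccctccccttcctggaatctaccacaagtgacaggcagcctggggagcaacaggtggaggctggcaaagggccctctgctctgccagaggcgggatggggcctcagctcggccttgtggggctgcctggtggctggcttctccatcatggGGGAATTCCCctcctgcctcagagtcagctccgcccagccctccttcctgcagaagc
The matches begin 113 and 28 bases before the start in Nfkbia, 225 before it in Nfkb2 and 57 and 56 before it in Tnip1. A match of letters is a description of the sequence and not a bound site.

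Genes of the T follicular helper program, which equips CD4 cells to help B cells, rose in 15 of 18 cases and none fell (median 1.88); 3 of the 18 passed the filter through the node libraries alone. Tox2 (NM_001098799, chromosome 2, 163225454 to 163323102), a transcription factor of that program, had 30.7, 19.4, 33.3 and 36.3 in the node and 0.351 and 0.378 in culture (log2 fold change 4.47, SE 0.23, adjusted p = 1e-05). Cxcr5 (NM_007551, chromosome 9, 44511787 to 44526421), the receptor that draws T cells to B cell follicles, had 8.98, 9.53, 15.5 and 26.98 in the node and 0.112 and 0.0553 in culture (log2 fold change 3.78, SE 0.38, adjusted p = 0.000227). Il21 (NM_021782, chromosome 3, 37222759 to 37232636), the cytokine gene of these cells, had 27.9, 35.8, 15.96 and 12.9 in the node and 1.93 and 0.455 in culture (log2 fold change 3.44, SE 0.42, adjusted p = 0.000645). Node and culture values were apart in all 3, as in 49.9% of all genes tested. Tox2 and Cxcr5 passed the filter through the node libraries only and had to differ. Cxcr5 and Il21 each varied more than 2-fold among the node libraries. Bcl6, the master factor of the program, had 13.1, 13.1, 15.6 and 21.2 in the node and 5.65 and 3.63 in culture (log2 fold change 1.57, SE 0.22, adjusted p = 0.0013). Tcf7, its partner, had 467, 473, 571 and 610.4 in the node and 283 and 218 in culture (log2 fold change 1.08, SE 0.16, adjusted p = 0.00176). Cd40lg, the ligand that licenses B cells, and Cd200 rose by 3.01 and 3.35; Icos, a costimulatory receptor of the same cells, was at 63.3 in the node and 87.05 in culture and did not pass, though it did without lymph node replicate 2 (adjusted p down to 0.00513 over the alternatives). B cell markers were higher in the node as given above. Fcrl1, best known from B cells, had 14.8, 15.4, 24.3 and 27.1 in the node and 0.0529 and 0.0786 in culture (log2 fold change 4.28, SE 0.25, adjusted p = 1.73e-05). These node levels were above that of every B cell marker in the tables, of which Cd79b had the highest at 6.47 to 7.96 in the node and 7.01 to 12.4 in culture. Fcrl1 passed the filter through the node libraries only and had to differ. Whether B cells contributed to its level was not tested.

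Of 15 inhibitory receptor genes and their partners 10 rose and 3 fell (median 1.21); 4 of those that rose, Pdcd1, Btla, Cd200 and Tox, are in the follicular helper list too. Pdcd1, which encodes PD-1, had 44.3, 54.1, 63.97 and 79.7 in the node and 9.24 and 10.5 in culture (log2 fold change 2.47, SE 0.21, adjusted p = 9.77e-05). Lag3 had 204, 162, 194 and 207 in the node and 48.6 and 43.6 in culture (log2 fold change 2.03, SE 0.13, adjusted p = 2.27e-05), and Btla rose by 2.67. Entpd1, the ectonucleotidase CD39, went the other way with 3.38, 4.28, 2.87 and 2.86 in the node and 22.3 and 17.01 in culture (log2 fold change -2.25, SE 0.17, adjusted p = 6.04e-05). So did Havcr2 (0.787 in the node and 2.70 in culture).

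Th2 cytokine genes split: 4 of 10 rose (Il21 above among them), 4 fell and 2 did not pass, and 5 of the 10 passed the filter through 1 group only. Tnfsf11 (NM_011613, chromosome 14, 78277446 to 78308043), which encodes RANK ligand, had 41.3, 55.8, 47.8 and 65.9 in the node and 0.241 and 0.174 in culture (log2 fold change 5.45, SE 0.18, adjusted p = 1.96e-06). Il13 (NM_008355, chromosome 11, 53631323 to 53634702), which acts on airway epithelium and smooth muscle, had 18.1, 20.6, 12.7 and 6.55 in the node and 2.80 and 2.78 in culture (log2 fold change 1.92, SE 0.37, adjusted p = 0.00599). The gene Il5 (NM_010558, chromosome 11, 53720794 to 53725103), whose product feeds eosinophils, had 1.36, 2.52, 1.69 and 1.25 in the node and 0.0320 and 0.158 in culture (log2 fold change 1.29, SE 0.20, adjusted p = 0.00215). The node libraries lay above both culture libraries in all 3, and the groups did not overlap in 49.9% of all genes tested. Tnfsf11 and Il5 passed the filter through the node libraries only and had to differ. Il13 spanned a 3-fold range in the node, and its call was lost without either culture library. Il4 (NM_021283, chromosome 11, 53612461 to 53618665), the cytokine that defines the lineage, had 21.9, 27.4, 16.3 and 9.13 in the node and 9.83 and 6.52 in culture, with replicate 4 below the higher culture library. The test was not passed (log2 fold change 1.03, SE 0.37, adjusted p = 0.071), but it was without lymph node replicate 4 and with all 11 libraries in the fit; the adjusted p ran between 0.000719 and 0.39 over the alternatives.

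Those that fell were Il24, Il10, Il6 and Csf2. Il24 (NM_053095, chromosome 1, 130882074 to 130887411), an IL-10 family cytokine gene, was at 0 in all 4 node libraries and at 60.4 and 55.2 in culture (adjusted p = 2.22e-07). Against a floor of 3 reads in a library, it was at least 405-fold lower in the node. Il24 passed the filter through the culture libraries only and had to differ. Il10, the regulatory cytokine gene, had 0.802, 2.85, 0.0965 and 0.155 in the node and 21.9 and 18.1 in culture (log2 fold change -3.60, SE 0.46, adjusted p = 0.000793). Il6 and Csf2, which encodes GM-CSF, were near the filter at 0.0562 in the node and 1.39 in culture and at 0.663 in the node and 2.31 in culture; the call of Csf2 was lost without culture replicate 2 (adjusted p up to 0.102).

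Gata3 (NM_008091, chromosome 2, 9857078 to 9878600) had 42.7, 33.5, 40.97 and 35.9 in the node and 82.3 and 80.6 in culture, without overlap (log2 fold change -1.08, SE 0.12, adjusted p = 0.000426). Of 20 Th2 transcription factor genes 7 rose, 5 fell and 8 did not pass. Nfil3, a bZIP factor induced by IL-4, had 16.4, 16.9, 13.4 and 9.32 in the node and 184 and 148 in culture (log2 fold change -3.50, SE 0.22, adjusted p = 2.51e-05). Satb1, a chromatin organiser of the Th2 locus, had 31.3, 33.1, 26.1 and 23.2 in the node and 172 and 112 in culture (log2 fold change -2.26, SE 0.20, adjusted p = 0.000115). Bhlhe40 rose by 1.75 and Gfi1 by 1.07; Ets1 and Ikzf1, lymphoid factors, rose by 0.76 and 0.96; Maf did not pass (31.5 in the node and 17.9 in culture). Receptor genes for alarmins and lipid mediators fell in 4 of 12 cases and rose in 1, Ptger4, whose call was lost without culture replicate 1 (adjusted p up to 0.0893 over the alternatives). The decoy receptor gene Il1r2 had 0.272, 0.309, 0.188 and 0.189 in the node and 23.3 and 9.11 in culture. Of the 12, 2 passed the filter through 1 group only, and Il1r2, through culture, had to differ. The leukotriene receptor gene Cysltr1 had 0.731, 2.11, 0.491 and 0.559 in the node and 15.99 and 14.5 in culture.

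Of 8 receptor genes of the common γ chain family 2 fell, Il2ra and Il4ra, 3 rose and 3 did not pass (median -0.20). Il2ra (NM_008367, chromosome 2, 11642792 to 11693194), the high-affinity chain of the IL-2 receptor, had 18.3, 30.6, 13.8 and 12.8 in the node and 264 and 239 in culture (log2 fold change -3.75, SE 0.30, adjusted p = 7.34e-05). Il4ra (NM_001008700, chromosome 7, 125552282 to 125579474) had 48.9, 39.5, 54.7 and 48.1 in the node and 393 and 283 in culture (log2 fold change -2.79, SE 0.17, adjusted p = 2.02e-05). Il9r (NM_008374, chromosome 11, 32188997 to 32200279), the IL-9 receptor, went the other way with 53.7, 39.6, 51.8 and 54.5 in the node and 1.14 and 0.756 in culture (log2 fold change 4.70, SE 0.16, adjusted p = 2.02e-06). Il7r, for the survival cytokine IL-7, overlapped between the groups and did not pass (46.4, 85.2, 38.9 and 39.8 in the node, 100.2 and 65.7 in culture, adjusted p = 0.139). The overlap came from lymph node replicate 2, and without it Il7r was lower in the node and passed (adjusted p = 0.00527). The shared chain Il2rg did not pass either (277 in the node and 325 in culture).

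Among SOCS and JAK-STAT genes 6 of 21 fell and 8 rose (4 without culture replicate 2). The 6 that fell are known to be induced through STATs. They are the feedback inhibitors Socs1, Cish, Socs2 and Socs3 and the kinase genes Pim1 and Pim2. Socs1 had 20.01, 10.1, 23.6 and 16.2 in the node and 144 and 104 in culture (log2 fold change -2.80, SE 0.29, adjusted p = 0.000295). Cish had 39.1, 35.1, 38.5 and 33.6 in the node and 129.5 and 84.98 in culture (log2 fold change -1.50, SE 0.17, adjusted p = 0.000386). Socs2, Socs3, Pim1 and Pim2 fell by 1.92, 1.80, 1.94 and 0.56. Socs2 lost its call without culture replicate 1, and Pim2 without either culture library (adjusted p up to 0.0771 and 0.217). Those that rose include the kinase gene Tyk2 (0.78). Stat5a and Stat5b did not pass (0.048 and 0.020). The letters TTCNNNGAA, a STAT site that reads alike on both strands, stood in 2 of the 4 matched promoters of members that fell (Cish and Socs3), against 7.23% of all windows. The 250 bases before the start of Socs3 (chr11:117969367-117969616 on the minus strand) are shown because STAT factors are known to bind this promoter; the match, in capitals, begins 154 bases before the start.
Socs3: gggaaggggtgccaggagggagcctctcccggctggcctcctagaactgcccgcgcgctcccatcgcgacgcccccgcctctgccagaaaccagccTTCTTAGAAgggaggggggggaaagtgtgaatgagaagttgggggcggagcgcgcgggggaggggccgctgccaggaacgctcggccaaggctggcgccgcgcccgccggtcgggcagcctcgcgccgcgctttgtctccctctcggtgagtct
In Cish both matches lie at or after the start and are not shown.

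**Figure D2:**
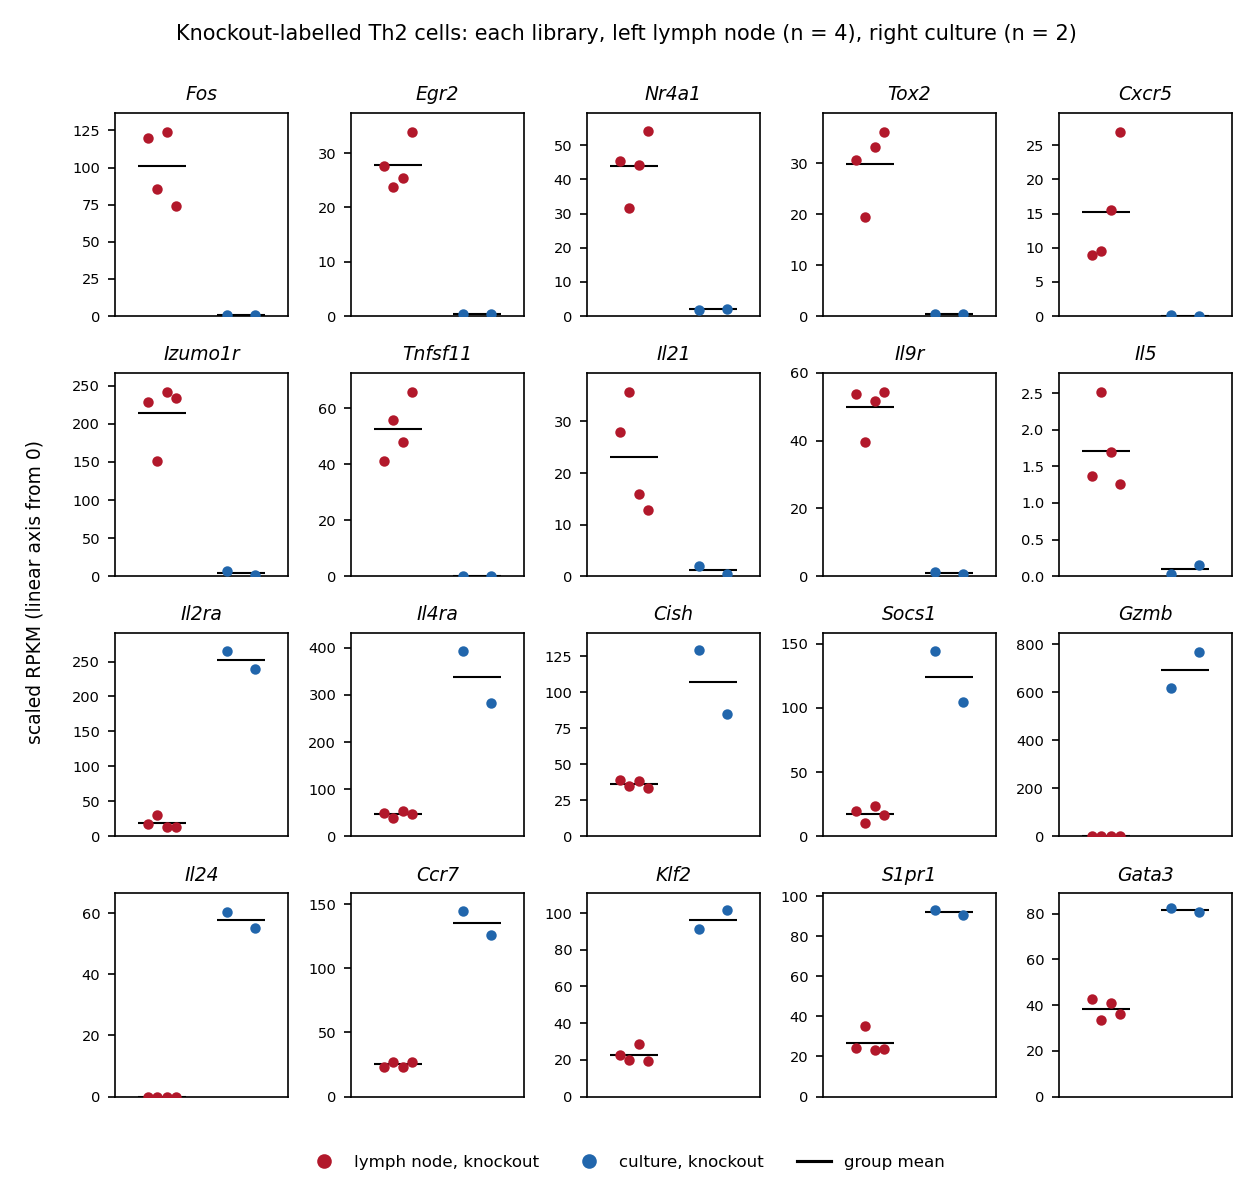
Scaled RPKM of 20 genes in each of the 4 lymph node knockout libraries (red, left) and 2 culture knockout libraries (blue, right), on linear axes from 0, with a black bar at each group mean. No gene shown has overlapping groups, as is so for 49.9% of all genes tested, and Il24 is at 0 in all 4 node libraries.

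Of 19 Th1 and cytotoxic genes 6 rose and 9 fell; 6 of the 19 passed the filter through 1 group only. Gzma (NM_010370, chromosome 13, 113093827 to 113100981), a granule protease gene, had 2.96, 2.87, 1.05 and 1.27 in the node and 1655 and 848 in culture (log2 fold change -8.67, SE 0.35, adjusted p = 4.28e-06). Gzmb (NM_013542, chromosome 14, 56258836 to 56262334), which activates caspases in target cells, had 3.34, 3.28, 3.21 and 1.10 in the node and 616 and 767 in culture (log2 fold change -7.59, SE 0.29, adjusted p = 3.43e-06). The perforin gene Prf1, Gzmc, the factor gene Eomes and the receptor genes Klrk1 and Klrd1 also fell (-2.11, -1.83, -2.37, -1.18 and -1.05). Gzmb and Gzmc are related copies, and how reads shared by such copies were counted is not given in the sources used here. CD8 and NK cell markers summed to 5.37 to 6.12 in the node and 10.7 to 15.8 in culture, in culture mostly from Eomes and in the node from Cd8b1, with Ncr1 at 0 in culture and at most 0.0933 in the node. Among those that rose was Tbx21. This gene encodes the master factor of Th1 cells and had 64.2, 41.1, 51.9 and 44.8 in the node and 10.9 and 12.9 in culture (log2 fold change 1.99, SE 0.18, adjusted p = 0.000125). Ifng, the Th1 cytokine gene, had 13.2, 13.4, 7.90 and 9.03 in the node and 0.364 and 0.362 in culture (log2 fold change 3.09, SE 0.21, adjusted p = 3.67e-05). Ifng passed the filter through the node libraries only and had to differ. Cxcr3, a receptor for chemokines that IFN-γ induces, had 209.9, 152, 216 and 207 in the node and 25.6 and 24.8 in culture (log2 fold change 2.90, SE 0.15, adjusted p = 1.14e-05).

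Of 14 genes of lymph node exit and entry, 9 fell and 2 rose, Cd69 and S1pr2 (median -1.16); the call of S1pr2 was lost in most alternatives (adjusted p up to 0.266). Klf2 (NM_008452, chromosome 8, 72319062 to 72321654) had 22.5, 19.98, 28.7 and 19.4 in the node and 91.4 and 102 in culture (log2 fold change -2.06, SE 0.16, adjusted p = 6.25e-05). S1pr1 (NM_007901, chromosome 3, 115710433 to 115715055), its target, had 24.4, 35.2, 23.4 and 23.5 in the node and 93.2 and 90.8 in culture (log2 fold change -1.77, SE 0.17, adjusted p = 0.000177). Ccr7 (NM_001301713, chromosome 11, 99144199 to 99155077), for entry into and retention in nodes, had 23.3, 26.8, 23.3 and 27.02 in the node and 145 and 126 in culture (log2 fold change -2.39, SE 0.11, adjusted p = 9.21e-06). The groups were fully apart in all 3. Gpr183, an oxysterol receptor that places cells at the follicle edge, had 0.246, 0.496, 0.383 and 0.651 in the node and 7.11 and 6.93 in culture (log2 fold change -2.48, SE 0.15, adjusted p = 2.2e-05). This gene passed the filter through the culture libraries only and had to differ. Cxcr4 had 20.2, 24.4, 21.3 and 19.5 in the node and 99.4 and 102 in culture (log2 fold change -2.19, SE 0.11, adjusted p = 1.14e-05). Ecm1, a secreted protein linked to Th2 exit from nodes in mice, had 11.9, 9.71, 10.2 and 7.33 in the node and 737 and 173 in culture (log2 fold change -5.07, SE 0.48, adjusted p = 0.00016). The culture libraries differed over 4-fold, and both lay above all node libraries.

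Homing receptors for tissue were mixed (9 of 20 rose, 5 fell, and 4 of the 20 passed the filter through 1 group only). Itgb1 (NM_010578, chromosome 8, 128685654 to 128733579), the common β chain of several integrins, had 361, 588, 456 and 563 in the node and 32.8 and 55.1 in culture (log2 fold change 3.47, SE 0.25, adjusted p = 4.22e-05). Itga4, which pairs with it, rose by 2.57; Itgb7, the other partner of Itga4 and a gut homing chain, fell by 1.18. Ccr8, a chemokine receptor of Th2 cells, had 76.4, 76.7, 90.2 and 81.7 in the node and 38.5 and 44.96 in culture (log2 fold change 0.94, SE 0.11, adjusted p = 0.000634). Ccr4, another of them, overlapped (38.2, 47.5, 38.8 and 40.2 in the node, 43.3 and 37.1 in culture, adjusted p = 0.866), as did Cxcr6 (adjusted p = 0.113). The overlap of Cxcr6 came from lymph node replicate 2, and without it Cxcr6 was lower in the node and passed (adjusted p = 0.00186). Fut7, which makes selectin ligands, fell by 2.68. Of 24 integrin and adhesion genes 6 rose and 8 fell, among them Itgb3 with 16.8, 19.6, 11.9 and 10.99 in the node and 149 and 110.1 in culture (log2 fold change -3.06, SE 0.23, adjusted p = 5.92e-05). Tissue residency genes rose in 9 of 17 cases and fell in 2 (median 0.81; 4 of the 17 passed the filter through 1 group only). The ATP receptor gene P2rx7 had 104, 89.2, 97.5 and 98.3 in the node and 13.2 and 8.85 in culture (log2 fold change 3.05, SE 0.15, adjusted p = 9.61e-06). Itgae, Cxcr6 and Rgs1 did not pass.

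Among RGS genes, dampers of chemokine receptor signals, 4 of 10 rose and Rgs12 fell. Rgs16 (NM_011267, chromosome 1, 153740353 to 153745468) had 41.6, 41.6, 42.8 and 56.1 in the node and 0.941 and 1.14 in culture (log2 fold change 4.50, SE 0.15, adjusted p = 1.96e-06); Rgs10, Rgs3 and Rgs2 rose by 2.03, 2.56 and 2.87. TNF superfamily genes rose in 11 of 23 cases (5 without culture replicate 2) and fell in 3. Tnf had 46.9, 37.1, 56.7 and 70.4 in the node and 3.50 and 2.51 in culture (log2 fold change 3.72, SE 0.24, adjusted p = 2.44e-05). Tnfrsf8, which encodes CD30, had 11.96, 7.43, 7.22 and 5.10 in the node and 119.7 and 133 in culture (log2 fold change -3.89, SE 0.25, adjusted p = 2.83e-05). Within the Bcl2 family the antiapoptotic genes parted: Bcl2a1b had 60.7, 62.1, 58.8 and 71.3 in the node and 2.82 and 2.10 in culture (log2 fold change 4.22, SE 0.13, adjusted p = 1.75e-06). Bcl2 had 15.4, 20.3, 13.3 and 14.2 in the node and 76.6 and 60.5 in culture (log2 fold change -2.06, SE 0.17, adjusted p = 0.0001). Bcl2a1b has near-identical copies (Bcl2a1d rose by 3.42), so the split between them is uncertain.

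Of 22 genes of naive and memory cells 9 fell, among them Ccr7 and Klf2 above, and 5 rose (2 and 3 without culture replicates 1 and 2). Of 16 regulatory T cell genes 4 rose and 7 fell. Izumo1r (NM_022888, chromosome 9, 14900023 to 14903951), the folate receptor FR4, had 228, 151, 242 and 233 in the node and 6.69 and 2.15 in culture (log2 fold change 5.42, SE 0.33, adjusted p = 2.27e-05). The semaphorin receptor gene Nrp1 had 42.2, 55.1, 56.7 and 72.8 in the node and 4.64 and 4.22 in culture (log2 fold change 3.39, SE 0.19, adjusted p = 1.55e-05). Foxp3, which defines regulatory T cells, had 2.10, 2.16, 1.88 and 1.75 in the node and 5.76 and 4.14 in culture (log2 fold change -0.99, SE 0.15, adjusted p = 0.00195). Lrrc32, which displays latent TGF-β, had 0.819, 1.06, 1.12 and 0.991 in the node and 29.7 and 16.9 in culture (log2 fold change -3.55, SE 0.21, adjusted p = 1.79e-05). Ebi3, an IL-35 subunit, and Nt5e, the ectonucleotidase CD73, make up the 4 that rose (1.60 and 1.95), so Foxp3 itself went the other way. TGF-β response genes rose in 2 of 17 cases and fell in 3, which is near the background of 14.0% and 15.0%.

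Cholesterol and fatty acid synthesis genes were broadly lower in the node: 26 of 32 fell (22 and 20 without culture replicates 1 and 2), and 1, the exporter gene Abcg1, rose with a call lost in several alternatives (adjusted p up to 0.337; median of the list -1.16). Fdps (NM_134469, chromosome 3, 89093588 to 89101967), which makes farnesyl diphosphate, had 11.4, 10.6, 12.3 and 12.1 in the node and 53.05 and 53.03 in culture (log2 fold change -2.10, SE 0.10, adjusted p = 9.61e-06). Fads2, a fatty acid desaturase, had 0.969, 1.13, 0.698 and 1.25 in the node and 38.6 and 48.9 in culture (log2 fold change -4.48, SE 0.16, adjusted p = 2.14e-06). The groups lay far apart in both genes, and the culture libraries were close to each other in Fdps. The early pathway gene Hmgcs1 fell by 1.70, the later ones Msmo1 and Sqle by 1.81 and 1.46, the desaturase genes Scd1 and Scd2 by 3.32 and 1.70, and the sterol sensor gene Insig1 by 1.79. Srebf2, the pathway's main driver, did not pass (69.8 in the node and 95.5 in culture) but did without lymph node replicate 2 or with all 11 libraries in the fit (adjusted p down to 0.0373). The sterol element TCACNCCAC, read on both strands, stood in 1 of the 16 matched promoters of members that fell, that of Hmgcs1, and in 1.13% of all windows. Its 250 bases before the start (chr13:119690101-119690350 on the plus strand) are shown because this promoter is a known target of the sterol response; the match begins 137 bases before the start.
Hmgcs1: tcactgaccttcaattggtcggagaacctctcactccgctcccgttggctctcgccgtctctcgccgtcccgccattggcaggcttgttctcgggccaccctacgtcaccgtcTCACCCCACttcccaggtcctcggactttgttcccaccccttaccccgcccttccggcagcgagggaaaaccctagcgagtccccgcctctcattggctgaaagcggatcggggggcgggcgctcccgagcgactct

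Among glycolysis and hypoxia genes, 21 of 33 fell and 2 rose (median -0.60; 9 and 15 fell without culture replicates 1 and 2). Bnip3, a hypoxia-induced mitophagy gene, had 3.06, 5.003, 2.98 and 3.92 in the node and 30.1 and 22.8 in culture (log2 fold change -2.54, SE 0.20, adjusted p = 6.21e-05). Slc16a3, a lactate exporter gene, had 13.7, 11.2, 14.6 and 12.5 in the node and 54.7 and 47.5 in culture (log2 fold change -1.90, SE 0.13, adjusted p = 3.32e-05). Vegfa, a hypoxia target, fell by 2.47 but passed the filter through the culture libraries only and had to differ. The enzyme genes Pdk1, Pgk1 and Eno1 fell by 1.25, 1.02 and 0.90. Hif1a did not pass (56.8 in the node and 85.6 in culture) but did without lymph node replicate 2 (adjusted p = 0.0104). Nutrient transporter genes fell in 10 of 19 cases (4 without culture replicate 2) and rose in 3. The glucose transporter gene Slc2a1 had 19.3, 16.2, 17.4 and 15.9 in the node and 55.3 and 43.4 in culture (log2 fold change -1.46, SE 0.13, adjusted p = 0.000135). The amino acid transporter gene Slc7a5 had 18.2, 16.7, 13.9 and 13.7 in the node and 42.02 and 55.7 in culture (log2 fold change -1.58, SE 0.16, adjusted p = 0.000226). Of 29 oxidative phosphorylation genes 1 passed, Atp5a1 (0.34, with an adjusted p up to 0.244 over the alternatives; median of the list 0.034).

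Chaperone and unfolded protein response genes fell in 11 of 35 cases (4 without culture replicate 2) and 1, Hsph1, rose (adjusted p up to 0.193 over the alternatives). The largest of these falls were in genes that Atf4 induces when amino acids are short. Trib3 had 1.39, 1.15, 0.856 and 0.714 in the node and 11.1 and 11.6 in culture (log2 fold change -2.62, SE 0.16, adjusted p = 2.27e-05). Chac1, a glutathione-degrading enzyme gene, fell by 1.80 but passed the filter through the culture libraries only and had to differ. Asns, asparagine synthetase, had 6.29, 8.03, 6.71 and 5.58 in the node and 19.3 and 29.98 in culture (log2 fold change -1.72, SE 0.19, adjusted p = 0.000402). Hspa5, the main chaperone of the endoplasmic reticulum, did not pass (344 in the node and 284 in culture). Myc (NM_001177354, chromosome 15, 61985341 to 61990361) had 17.2, 14.1, 19.6 and 16.8 in the node and 45.1 and 48.04 in culture (log2 fold change -1.41, SE 0.13, adjusted p = 0.000167). Of 34 genes of its list 11 fell (3 without culture replicate 2, 16 without lymph node replicate 2), Nop56 among them (-1.34). Of 29 ribosomal protein genes 1 rose (Rpl7) and 2 fell (Rplp1 and Rps19), all with calls lost in several alternatives (adjusted p up to 0.252, 0.249 and 0.142), and these shares are under the background.

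Proliferation genes differed little in size. All 31 G2/M genes had negative log2 fold changes after scaling (median -0.49), and 22 fell, but 15 and 6 did so without culture replicates 1 and 2 and 28 without lymph node replicate 2. Aurkb, a mitotic kinase gene, had 57.7, 53.8, 54.1 and 46.8 in the node and 87.1 and 101 in culture (log2 fold change -0.81, SE 0.12, adjusted p = 0.00154). Of 31 G1/S genes 9 fell (5 and 1 without culture replicates 1 and 2, 14 without lymph node replicate 2; median -0.25), among them Rrm2, of nucleotide synthesis. Rrm2 had 90.9, 111, 93.5 and 82.9 in the node and 163 and 189 in culture (log2 fold change -0.89, SE 0.14, adjusted p = 0.0019). Mki67, the proliferation marker, overlapped and did not pass (103, 141, 100.1 and 101 in the node, 138 and 174 in culture, adjusted p = 0.0594). The overlap came from lymph node replicate 2, and without it Mki67 was lower in the node and passed (adjusted p = 0.00492). It also passed with RPKM as deposited, with voom on reads and with all 11 libraries in the fit.

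Of 32 interferon response genes 3 rose, 6 fell (1 without culture replicate 1) and 23 did not pass, which is near the background of 14.0% and 15.0%. Oas3, an antiviral sensor gene, had 4.74, 4.000, 5.63 and 7.95 in the node and 13.9 and 13.8 in culture (log2 fold change -1.21, SE 0.22, adjusted p = 0.00413). Iron handling genes fell in 3 of 10 cases, among them the ferritin gene Fth1 (339, 288, 359 and 365 in the node, 556 and 577 in culture; log2 fold change -0.75, SE 0.13, adjusted p = 0.00327). Lipid handling genes fell in 4 of 13 and rose in 1 (Soat1, adjusted p up to 0.289 over the alternatives), and actin and motility genes rose in 8 of 39 (1 without culture replicate 2) and fell in 5. The actin and motility shares were 20.5% higher and 12.8% lower, against 14.0% and 15.0% over all genes. The intermediate filament gene Vim, among the most abundant transcripts that fell, had 647, 668, 643 and 558 in the node and 1738 and 1636 in culture (log2 fold change -1.42, SE 0.12, adjusted p = 0.000104). The galectin gene Lgals1 had 895, 689, 895 and 736 in the node and 2106 and 2086 in culture (log2 fold change -1.39, SE 0.15, adjusted p = 0.000329). Among the most abundant that rose was Cotl1, an actin-binding protein, with 670.0, 472, 724 and 658 in the node and 246 and 232 in culture (log2 fold change 1.38, SE 0.17, adjusted p = 0.000776).

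Other genes with extreme falls belong to none of these lists. Ifitm1, an interferon-induced membrane protein, had 1.01, 0.501, 0.497 and 0.375 in the node and 231 and 210.2 in culture (log2 fold change -7.13, SE 0.17, adjusted p = 3.69e-07). Cyp11a1, which opens steroid synthesis from cholesterol, had 8.70, 7.49, 3.93 and 2.66 in the node and 194 and 113 in culture (log2 fold change -4.59, SE 0.40, adjusted p = 0.000104). The tetraspanin gene Tspan9 had 0.184, 0.163, 0.0955 and 0.154 in the node and 16.95 and 17.5 in culture (log2 fold change -3.99, SE 0.12, adjusted p = 1.75e-06). The node and culture libraries lay far apart in all 3, but Ifitm1 and Tspan9 passed the filter through the culture libraries only and had to differ.

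**Figure D3:**
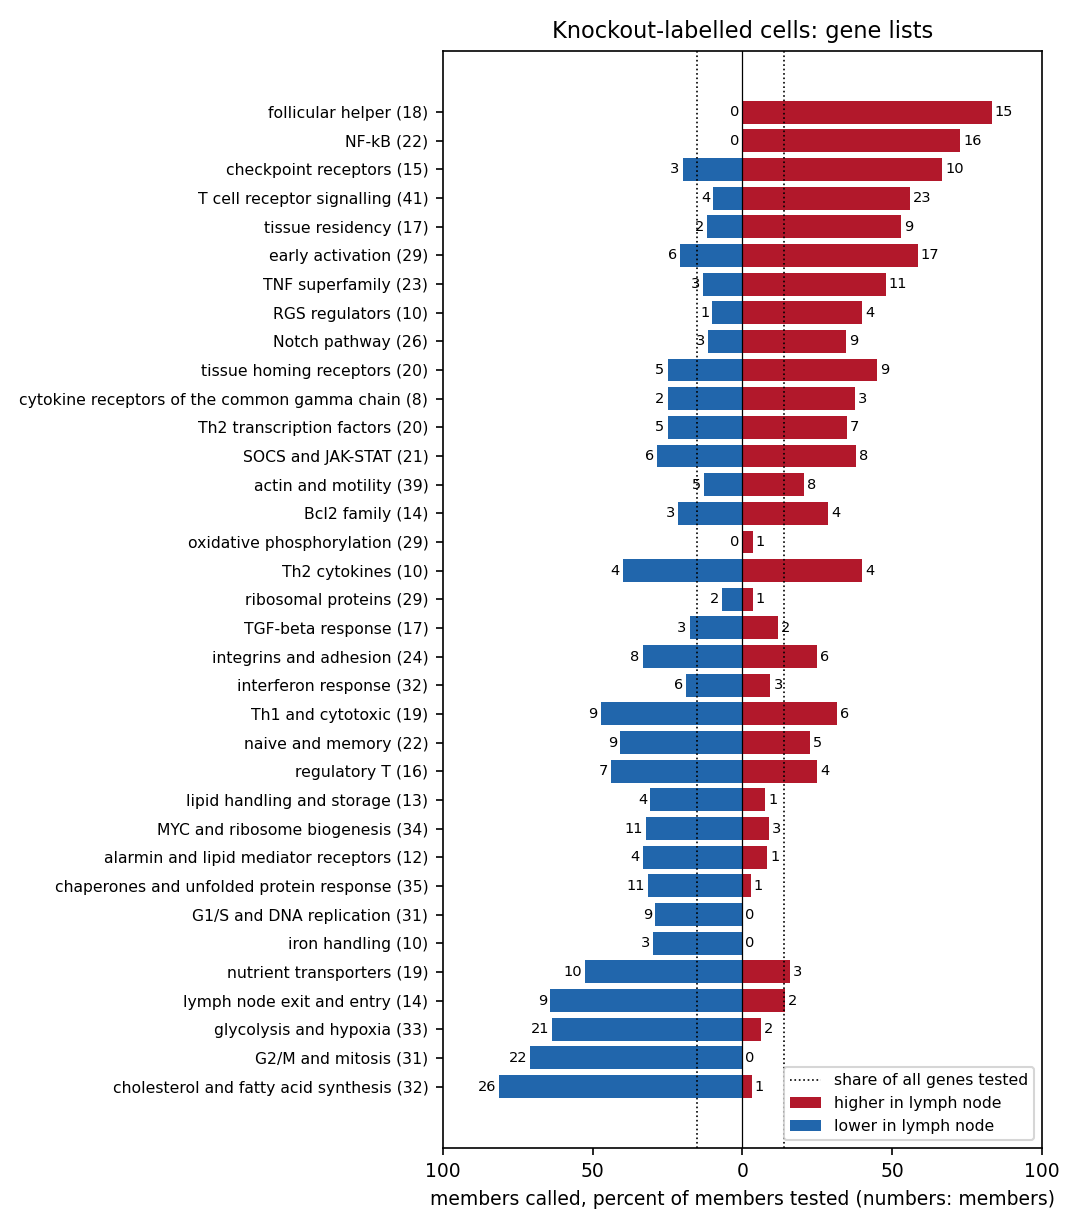
Share of the tested members of each gene list with at least 5 tested (number tested in brackets) that were called higher (red, to the right) or lower (blue, to the left) in lymph node than in culture knockout libraries, in percent, with the count beside each bar. Dotted lines mark the shares over all genes, 14.0% higher and 15.0% lower; of the lists shown, follicular helper and NF-kB reach furthest right and cholesterol and G2/M furthest left.

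Whether these differences depend on the genotype was tested as the lymph node minus culture difference in knockout cells less that in wild type cells, over 11 libraries; both comparisons use separate libraries. Across the 11168 genes the log2 fold changes of both genotypes had Pearson's r = 0.765 and Spearman's rho = 0.643, as a description over genes. Of the 3237 called genes 2949 (91.1%) had the same sign in wild type, a share that was not computed over all genes tested. The filter was set on knockout libraries alone. Genes low there but not in wild type cells, such as Dtx1, were therefore not tested for a difference between genotypes. With no filter, the difference passed in 462 genes, 281 more positive and 181 more negative in knockout cells. With the filter, the difference passed the threshold in 386 genes (3.46%), with 253 more positive (2.27%) and 133 more negative (1.19%) in knockout cells. Among these, 179 rose in knockout cells with a more positive difference, 76 fell with a more negative one, 106 did not pass within knockout cells and 25 had passed there with the other sign. The count was 152 without culture wild type replicate 1 and 174 without culture knockout replicate 2.

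**Figure D4:**
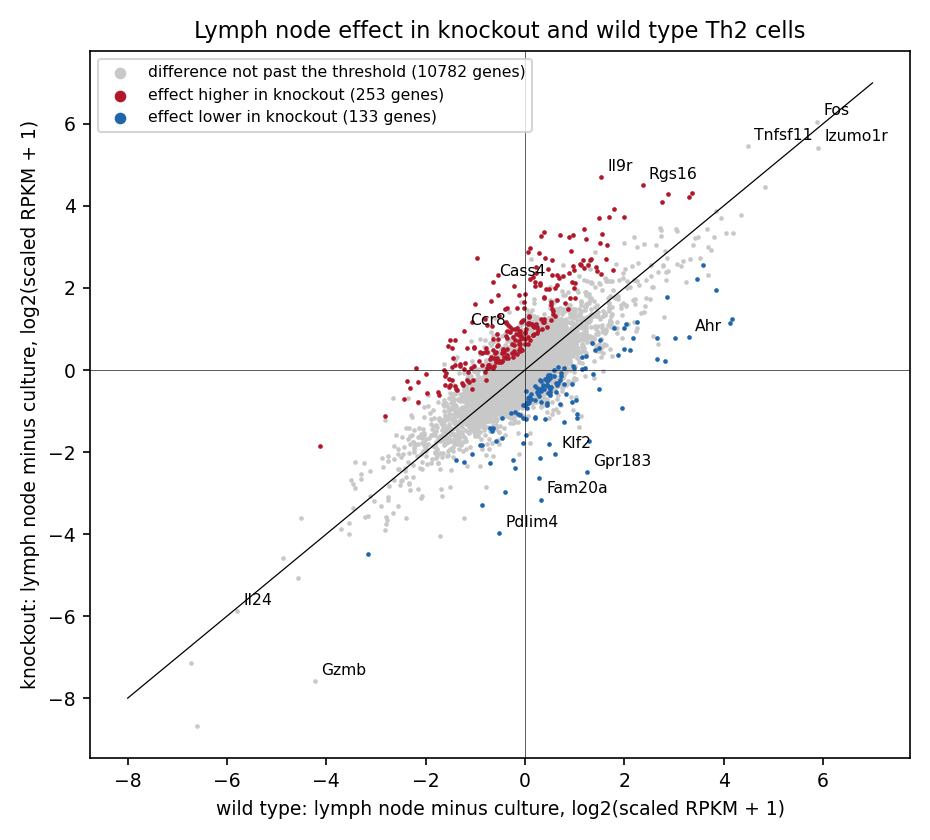
Lymph node minus culture difference in knockout cells (vertical axis) against the same in wild type cells (horizontal axis), each point a gene, as log2(scaled RPKM + 1). Red points are the 253 genes with a more positive and blue points the 133 with a more negative value in knockout cells; grey genes such as Fos, Izumo1r and Il24 lie near the line of equal differences.

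The difference passed in 3 of 29 early activation genes and 2 of 18 follicular helper genes, against 3.46% of all genes tested. Fos differed by 6.06 in knockout and 5.88 in wild type cells (difference 0.18, SE 0.44, adjusted p = 0.855), Nr4a1 by 3.87 and 3.85 (adjusted p = 0.987), and Tox2 by 4.47 and 4.84 (adjusted p = 0.6). Egr2 (0.95, SE 0.20, adjusted p = 0.0293) and Egr3 (1.33, SE 0.23, adjusted p = 0.0104) are among the 3, and Zfp36, an mRNA decay factor, is the third (-1.41). Of 32 cholesterol genes 2 passed, Fads2 (-1.31, SE 0.26, adjusted p = 0.0187) and Pmvk (-0.85). The calls of Egr2, Egr3, Fads2 and Pmvk were lost without culture wild type replicate 1 or culture knockout replicate 2 among others (adjusted p up to 0.211, 0.068 and 0.104 for the first 3). A p that misses the threshold does not show that the genotypes are alike.

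Exit and entry genes passed in 7 of 14 cases, all more negative in knockout cells, against 1.19% of all genes tested in that direction. Klf2, whose knockout values stand above, had 77.7, 83.7 and 74.7 in lymph node wild type and 31.1 and 84.3 in culture wild type libraries (difference -2.66, SE 0.43, adjusted p = 0.00748). S1pr1 had 62.3, 56.7 and 59.4 in lymph node wild type and 49.4 and 74.4 in culture wild type libraries (difference -1.74, SE 0.26, adjusted p = 0.00553). Gpr183 had 20.2, 13.1 and 15.05 in lymph node wild type and 7.24 and 5.14 in culture wild type libraries (difference -3.73, SE 0.26, adjusted p = 0.000136). In wild type cells the Klf2 and S1pr1 values of node and culture overlapped, and Gpr183 was higher in all 3 node libraries than in both culture libraries. Ccr7 (-2.19, SE 0.26, adjusted p = 0.00121), Cxcr4 (-0.80, SE 0.16, adjusted p = 0.0188), Itgb7 (-1.13) and Klf3 (-2.87) make up the 7. Cxcr4 and Itgb7 lost their calls without culture wild type replicate 1 or either culture knockout library, among others (for Cxcr4, adjusted p up to 0.145).

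More positive differences were found in 5 of 23 TNF superfamily genes, 5 of 19 Th1 and cytotoxic genes and 3 of 20 tissue homing receptor genes, with Tnf in both of the first lists. Over all genes tested the share in that direction was 2.27%. Il9r, whose knockout values stand above, had 3.81, 4.75 and 5.16 in lymph node wild type and 0.960 and 0.852 in culture wild type libraries (difference 3.16, SE 0.22, adjusted p = 0.000136). Ccr8 rose in the node in knockout cells, while in wild type cells it was at 12.9, 27.9 and 20.04 in the node and 54.98 and 39.3 in culture (difference 2.17, SE 0.34, adjusted p = 0.00689). Ctsw, a cathepsin gene of cytotoxic cells, had 342, 244, 349 and 339.7 in lymph node knockout and 65.7 and 58.6 in culture knockout libraries. It had 55.8, 70.8 and 59.3 in lymph node wild type and 95.3 and 85.8 in culture wild type libraries (difference 2.87, SE 0.22, adjusted p = 0.000173). Ccr8 and Ctsw were thus higher in the node in knockout libraries and lower in the node in wild type libraries, without overlap in either. Cxcr3, Tbx21, Ifng, Tnf and Rgs16 also differed (1.97, 1.57, 1.58, 2.03 and 2.13), although Ifng lost its call when any of 7 libraries was left out and Tnf without culture wild type replicate 1 or culture knockout replicate 2 (adjusted p up to 0.174 and 0.0619). So did the adaptor gene Cass4 (2.79, SE 0.21, adjusted p = 0.000173). Rbpj differed by 1.87, SE 0.28, adjusted p = 0.00568, and Notch2 by 1.05, SE 0.17, adjusted p = 0.00685; Notch1 did not pass (1.06, SE 0.42, adjusted p = 0.214).

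Among Th2 genes the fall of Gata3 was larger in knockout cells (difference -0.93, SE 0.18, adjusted p = 0.0198); wild type libraries had 51.4, 59.9 and 49.3 in the node and 52.9 and 65.95 in culture and overlapped. That call was lost without lymph node wild type replicate 2, culture wild type replicate 1 or either culture knockout library (adjusted p up to 0.0984). Satb1 differed by -1.57, SE 0.26, adjusted p = 0.00798. The differences in Il4, Il5 and Il13 did not pass (-1.23, 0.39 and 1.17). Ahr, a ligand-activated factor chosen here after its values were seen, had 1.02, 1.90, 1.60 and 1.16 in lymph node knockout and 0.480 and 0.265 in culture knockout libraries. It had 11.2, 16.7 and 13.3 in lymph node wild type and 0.573 and 0.383 in culture wild type libraries (difference -2.50, SE 0.27, adjusted p = 0.000849). Fam20a, a pseudokinase gene, had 0.448, 0.694, 0.231 and 0.159 in lymph node knockout and 8.80 and 14.2 in culture knockout libraries. It had 12.8, 13.5 and 11.2 in lymph node wild type and 9.26 and 10.4 in culture wild type libraries (difference -3.47, SE 0.28, adjusted p = 0.000181). Fam20a passed the filter through the culture knockout libraries only, so it had to fall in knockout cells. The LIM protein gene Pdlim4 differed by -3.46, SE 0.56, adjusted p = 0.00733.

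**Figure D5:**
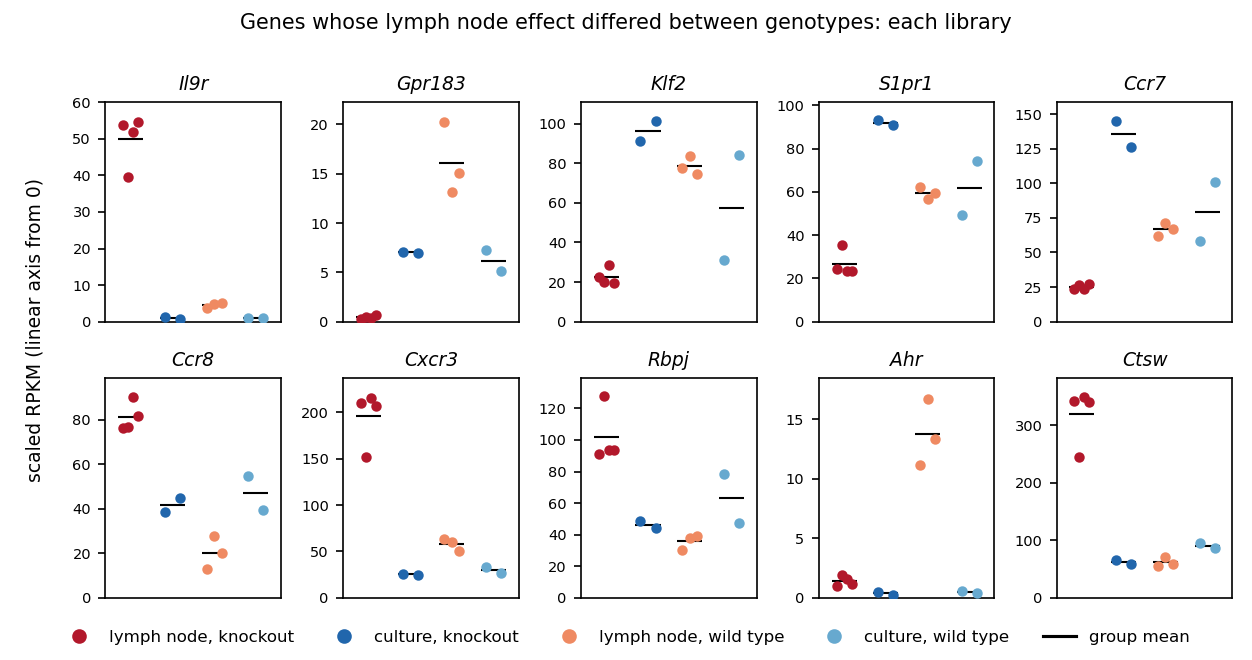
Scaled RPKM of 10 genes in each library, on linear axes from 0, with groups from left to right in the order lymph node knockout (n = 4), culture knockout (n = 2), lymph node wild type (n = 3) and culture wild type (n = 2), and a bar at each mean. Il9r, Ccr8, Cxcr3 and Ctsw are highest in lymph node knockout libraries, and Gpr183 and Ahr are highest in lymph node wild type libraries.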

How the data were processed

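The 6 libraries compared, and the 5 wild type libraries used for the difference between genotypes, come as 1 table each of RPKM values, which the authors deposited; HISAT2 2.0.4, the build mm10, HOMER and DESeq2 are named in the submitters' processing notes. Each table lists 1 RefSeq transcript a gene. Values were multiples of the worth of 1 read in 100.0% of the values under 100 reads (tolerance 0.1 read), which gave the depth. RPKM values were scaled by median ratios over 9787 genes (factors 0.972 to 1.031), logged as log2(scaled RPKM + 1), which understates changes of low genes, and fitted with limma 3.58.1 in R 4.3.3 (trended variance, 2 groups; 4 groups for the difference). The script was tested on simulated data. A voom fit on the reads read back is an alternative. Symbols spoilt by a spreadsheet (29) are given as the tables have them.

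Genes named are a fixed set of 33, the 10 highest and 10 lowest among called genes with a mean of at least 5 and no overlap, the 3 smallest p in each program list with 2 or more calls, the 5 smallest p of the difference, and 5 abundant ones in each direction; others were chosen after their values were seen. Some genes that the rule names are not reported here. Members, lists and motifs were chosen with earlier results of these data known. Counting of reads shared by copies, or by overlapping genes on opposite strands, is not given in the sources used here.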

Additional observations from a re-analysis of the deposited data

Results flagged for a closer look

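Lymph node knockout replicate 2 lay far from the other 3 libraries of its group in 12 of the values examined. It had the fewest genes at 0 (9432). It was the highest of the 4 in Rbpj (128 scaled RPKM), Il1rl1 (0.933), Il7r (85.2), S1pr1 (35.2), Cxcr6 (64.6), Mki67 (141) and Cysltr1 (2.11). It was the lowest in Izumo1r (151), Cxcr3 (152), Relb (24.9) and Ctsw (244). Replicate 4 was far below the others in Gzmb (1.10) and far above them in Rgs16 (56.1), and replicate 1 far below in Rasgrp1 (45.1). The gap to the nearest library exceeded Dixon's limit for 4 values; chance flags about 1 in 20 groups.

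In 29 named genes the lymph node minus culture difference itself differed between knockout and wild type cells in limma with Benjamini-Hochberg adjustment. On the log2 scale, knockout minus wild type, it was above 0 for Il9r (3.16), Ctsw (2.87), Cass4 (2.79), Ccr8 (2.17), Rgs16 (2.13), Tnf (2.03), Cxcr3 (1.97), Rbpj (1.87), Ifng (1.58), Tbx21 (1.57), Rgs3 (1.44), Fcrl1 (1.39), Egr3 (1.33), Notch2 (1.05), Egr2 (0.95) and Bcl2a1b (0.92). It was below 0 for Gpr183 (-3.73), Fam20a (-3.47), Pdlim4 (-3.46), Klf2 (-2.66), Ccr7 (-2.19), S1pr1 (-1.74), Satb1 (-1.57), Fads2 (-1.31), Nfkbiz (-1.09), Nfkbia (-1.04), Entpd1 (-1.03), Gata3 (-0.93) and Cxcr4 (-0.80). Of these, Fcrl1, Entpd1, Ifng, Egr2 and Bcl2a1b lost the call in the most alternatives.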

How the results depend on the processing

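No gene called both in the lymph node against culture comparison and in any of its 16 alternatives changed sign. Of 3237 calls, the count was 1948 with a replicate block (the title numbers as pairs) and 2859 with a block by the number in the column headers, an alternative added after seeing the data. Lymph node knockout replicates 3 and 4 and lymph node wild type replicate 3 have no culture library of their number. In the replicate block they add nothing to the node effect, so its lower counts also reflect fewer libraries. With the replicate block 118 differences between genotypes passed, against 386. It also ended the calls of Ptger4 and of the differences in S1pr1, Ccr8, Notch2, Satb1 and Tbx21 (adjusted p = 0.0597, 0.0771, 0.13, 0.068 and 0.068), and Il4 and Maf passed with either block. Deviations from the group mean of same-numbered knockout libraries correlated at 0.069 and 0.081, and of wild type libraries at -0.022 and 0.327. In a group of 2 culture libraries the deviations are mirror images. These values therefore cannot decide whether the numbers pair the libraries. The counts ranged from 1677 to 4197 when a library was left out of the lymph node against culture comparison, the lowest without culture knockout replicate 2 and the highest without lymph node knockout replicate 2, with 1778 without culture knockout replicate 1. For the difference they ranged from 152 without culture wild type replicate 1 to 504 without lymph node knockout replicate 2, with 174, 218 and 237 without culture knockout replicate 2 and lymph node wild type replicates 3 and 2. With 1 culture library left, its spread is assumed to be that of the node libraries. Both counts stayed within 1.5 times under the other alternatives (RPKM as deposited, scaling over 17 libraries, a pseudocount of 0.1, no filter, a filter at 5, voom on reads with 3250 and 397 calls). The lymph node against culture count did so too with all 11 libraries in the fit and with no variance trend, which were not run for the difference. Of 124 called genes that the naming rule takes, 111 were called in each of the 16 alternatives that tested them; 7 genes of the rule, Il5 among them, were below the filter at 5. Of 32 differences, 12 were called in all 19. Counts of list members without lymph node replicate 2 or a culture library were added after seeing the data. The cause of these shifts was not tested. Depth limits genes near 1 RPKM, and 2 culture libraries limit every test.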
